A study of Arabidopsis thaliana with 10 samples.

Results

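Glucosinolates are sulfur-rich defence compounds of *Arabidopsis* and its relatives. Myrosinases release toxic isothiocyanates and nitriles from them when tissue is damaged. The aliphatic ones come mainly from methionine, whose side chain is first lengthened, and the indolic ones come from tryptophan. In both branches an amino acid is turned into an aldoxime by CYP79 enzymes, oxidised by CYP83 enzymes, joined to glutathione, trimmed, glucosylated and sulfated, after which the side chain or the indole ring is modified. MYB28, MYB29 and MYB76 are the transcription factors of the aliphatic branch, and MYB34, MYB51 and MYB122 are those of the indolic branch.

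The glucosinolate biosynthesis genes were a list of 43 gene identifiers out of 32548 genes in the tables. It held 27 aliphatic genes, 13 indolic genes and 3 genes of core steps that both branches share. They were chosen by measured values in these same libraries, namely normalized reads compared across genotypes and between replicate sets, so that their levels and differences are given here as a description. Where a gene is said to pass or not to pass a threshold, that describes the fit over all genes, and because these values chose the genes it is no independent evidence for any of them. Of the 43 genes, 42 were in the tables and 39 had a mean of at least 10 normalized reads, the minimum for a fit. *AOP2* was not analysed here, and it is annotated as a transcribed pseudogene. *AOP3*, which encodes a side-chain dioxygenase, had 0 to 2 normalized reads in a library, and *GSTF11* and *CYP81F1* were listed at 0 in all 10 libraries.

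RNA-seq was measured in whole seedlings at an age of 10 days, raised on MS medium at 23 °C with 16 h of light and 8 h of darkness. The wild type was Col-0, and 4 mutants in the Col-0 background lacked regulators of the floral repressor gene *FLC*. These were the T-DNA insertion mutants *fld* and *ld*, the genome-edited double mutant *efl2 efl4* (written elf2/4 in some labels), and the double T-DNA mutant *sdg26 aprf1* with the *aprf1-9* allele. FLD resembles a histone demethylase, LD is a homeodomain protein, EFL2 and EFL4 are relatives of the clock protein ELF4, SDG26 is a SET domain protein, and APRF1 is a WD40 protein. Each genotype had 2 libraries, replicate 1 and replicate 2, and each double mutant was compared with Col-0 alone, not with its single mutants. The study calls the replicates independent, and whether they were separate sowings or harvests is not given in the sources used here, so that the errors measure the spread between these libraries.

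Between 20455413 and 20768023 reads fell on genes in a library. *FLD* had 42.7 and 40.0 normalized reads in the *fld* libraries against 422 to 495 elsewhere, and *SDG26* 50.3 and 54.6 in *sdg26 aprf1* against 265 to 350.5. *LD* was at 57.1% of the Col-0 mean in *ld*. *APRF1* was not matched to an identifier and is not checked here. *EFL2* and *EFL4*, which carry small deletions that need not lower the transcript, were at 70.4% and 76.5% in *efl2 efl4*. The summed level of 5 shoot markers was 588539 to 644198 normalized reads in the replicate 1 libraries and 597580.1 to 691493 in the replicate 2 libraries. The 5 root markers summed to 2675 to 2765 and to 2626 to 2825. All 5 flower and seed markers stayed under the minimum for a fit.

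Upstream sequence is shown for genes of the pathway as a description. The 250 bases before the annotated start of each gene were read from the RefSeq annotation of TAIR10.1 and searched on both strands for the MYB-type AC elements ACCTACC, its variant ACCAACC and a further form ACCTAAC, and for the G-box CACGTG, the usual site of MYC-type factors. An AC element was in 8 of 27 aliphatic promoters (29.6%), in 2 of the 3 shared ones and in 1 of 13 indolic ones (7.7%), against 6.1% of the promoters of 27443 protein-coding genes. A G-box was in 2 aliphatic promoters (7.4%), in 1 shared promoter and in 0 indolic ones, against 6.5% of all. The members were chosen, so these shares are a description, and a match of letters is not a binding site. Elements and differences between the replicate sets, given below, did not go together in every gene. The aliphatic genes *IPMI1*, *IPMI2*, *BAT5*, *CYP79F2*, *CYP83A1*, *SOT17* and *FMO-GSOX1* held an AC element and passed as lower in replicate 2. The shared genes *SUR1* and *UGT74B1* and the indolic gene *SOT16* did so too. Most fitted aliphatic genes without an AC element also passed as lower. *IPMI-LSU1* held an AC element and a G-box and did not pass in that contrast. *MYB76*, *CYP79F1*, *MYB29* and *FMO-GSOX3*, with the largest falls in replicate 2, held no AC element. A part of the elements in the differences was not tested. The windows around the AC elements of 5 genes follow, each with its strand, and the capitals mark the element, or its complement where the match is on the opposite strand:
*CYP79F2*, chr1:5604928-5604958, plus strand: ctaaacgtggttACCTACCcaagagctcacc
*SOT17*, chr1:6398501-6398530, plus strand: tcaccagtcaccACCAACCtacttatctat
*IPMI1*, chr3:21798419-21798449, minus strand: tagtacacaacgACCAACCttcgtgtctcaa
*BAT5*, chr4:7210775-7210805, plus strand: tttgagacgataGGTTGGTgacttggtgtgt
*CYP83A1*, chr4:7992482-7992512, minus strand: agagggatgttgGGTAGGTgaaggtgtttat

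The neighbours *CYP79F1* and *CYP79F2* are shown in full because they are copies of each other and yet differed across the mutants. *CYP79F1* lies at chr1:5608682-5612064 and *CYP79F2* at chr1:5605044-5607498, both on the plus strand and 1183 bases apart. Their coding sequences were identical at 91.9% of aligned bases. Of the 50-base windows of the longest annotated transcript, at least 97.3% in each gene had no second copy in the genome. Few reads of that length could thus be shared between these transcripts. The share for the coding sequences alone was not computed. In the 250 bases before each start, the capitals mark the AC element, which only *CYP79F2* of this pair held:
*CYP79F1*, chr1:5608432-5608681, plus strand: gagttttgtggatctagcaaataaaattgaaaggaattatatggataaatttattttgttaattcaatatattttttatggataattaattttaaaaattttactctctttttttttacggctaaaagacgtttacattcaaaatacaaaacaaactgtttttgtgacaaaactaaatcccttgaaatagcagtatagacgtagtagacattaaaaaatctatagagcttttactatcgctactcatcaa
*CYP79F2*, chr1:5604794-5605043, plus strand: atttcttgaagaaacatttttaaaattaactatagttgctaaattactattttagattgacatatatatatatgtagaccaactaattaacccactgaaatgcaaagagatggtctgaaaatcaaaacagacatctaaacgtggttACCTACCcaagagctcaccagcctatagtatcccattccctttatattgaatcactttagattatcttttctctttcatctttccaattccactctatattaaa

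Levels of the 39 genes are given as normalized reads on a scale common to all 10 libraries, and between genes as reads per kb of exon. The glutathione transferase genes *GSTF9*, *GSTF10* and *GSTU20* were highest, with means over the 10 libraries of 13613, 8936 and 8068 reads per kb. The chain-elongation genes *IPMI-LSU1*, for a subunit of the isomerase, and *MAM1*, for the methylthioalkylmalate synthase that adds each carbon, followed among the aliphatic genes with 2640.3 and 2114.5 reads per kb. Among the regulators *MYB28* was highest, with 1010.0 reads per kb, against 180 for *MYB29* and 19.6 for *MYB76*. The indolic regulators *MYB34* and *MYB51* had 363 and 248 reads per kb, and *MYB122* had 11.9, the lowest of the 39 genes.

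**Figure D1:**
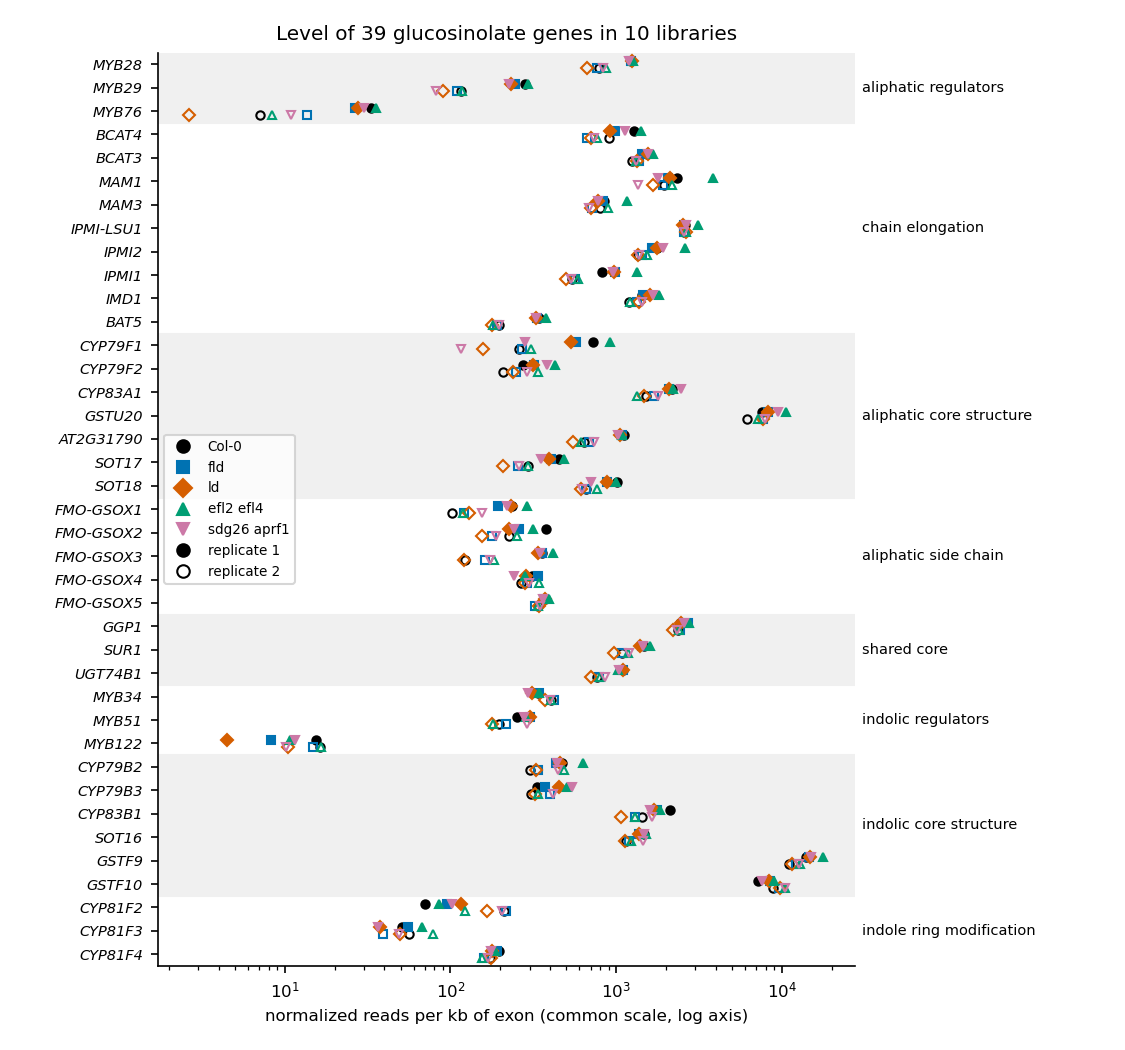
Normalized reads per kb of exon (log axis) of the 39 fitted genes in the 10 libraries, with genotypes by colour and shape, replicate 1 filled and replicate 2 open. In most aliphatic rows the open symbols lie to the left of the filled ones, whereas *MYB34*, *GSTF10* and *CYP81F2* have them to the right.

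As a median over the aliphatic genes, the replicate sets differed more than any mutant did from Col-0. In a limma fit over all 10 libraries with genotype and replicate number as terms, 31 of the 39 genes were lower in replicate 2 and 3 were higher at an adjusted *p* under 0.05 (Benjamini-Hochberg). Over all 20050 genes tested, 15.6% were lower and 13.4% were higher. By branch, 22 of 24 aliphatic genes were lower and 0 higher, all 3 shared genes were lower, and 6 of 12 indolic genes were lower and 3 higher. Because the list was chosen with this contrast in view, nothing is read from these counts. The edgeR fit called 34 of the 39 genes (29.3% of all genes) and the DESeq2 fit 32 (17.9%), and in the limma fit 13 of the 34 also differed by at least 0.5 on the log2 scale (6.66% of all genes).

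In each genotype taken alone, the median log2 difference of the 24 aliphatic genes (replicate 2 minus replicate 1) was negative. It was -0.56 in Col-0, -0.51 in *ld*, -0.48 in *fld*, -0.46 in *sdg26 aprf1* and -0.73 in *efl2 efl4*, while the median of all tested genes lay between -0.01 and 0. The median of the 12 indolic genes was -0.16 in Col-0 and also in *ld*, -0.22 in *fld*, -0.29 in *efl2 efl4* and 0.03 in *sdg26 aprf1*. In all 5 genotypes at once, 28 of the 39 genes were lower in replicate 2, 22 of them aliphatic, against 19.1% of all genes tested. Another 3, all indolic, were higher in all 5, against 17.3%.

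**Figure D2:**
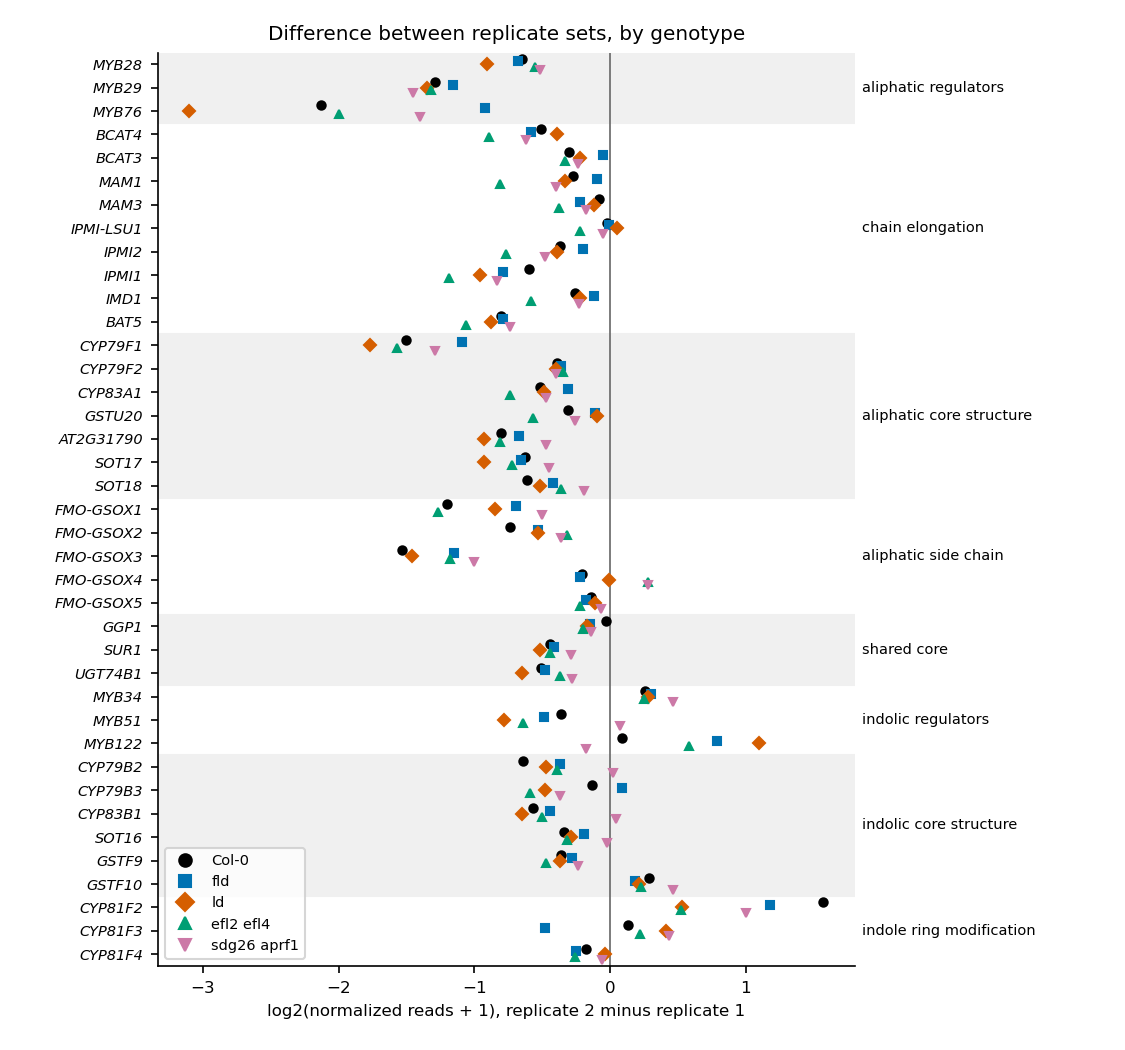
Log2 difference of normalized reads + 1 between replicate 2 and replicate 1 of each genotype (5 points per gene) for the 39 fitted genes, grouped by role. Aliphatic points lie left of 0 apart from a few of *IPMI-LSU1* and *FMO-GSOX4*, and *MYB76* in *ld* is the farthest at -3.10.

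The aliphatic regulators were lower in every replicate 2 library than in every replicate 1 library. *MYB28* (AT5G61420) had 2447 and 1558 normalized reads in the Col-0 replicates, 2464 and 1314 in *ld*, 2429 and 1516 in *fld*, 2371 and 1656 in *sdg26 aprf1* and 2515 and 1717 in *efl2 efl4* (replicate 1 first here and below). *MYB29* (AT5G07690) had 489.8 and 199.5 in Col-0, 403 and 157 in *ld*, 426 and 190.1 in *fld*, 391 and 142 in *sdg26 aprf1* and 508 and 203 in *efl2 efl4*. *MYB76* (AT5G07700) had 51.0 and 10.9 in Col-0, 42.4 and 4.08 in *ld*, 40.7 and 21.0 in *fld*, 46.3 and 16.9 in *sdg26 aprf1* and 54.8 and 12.9 in *efl2 efl4*. The replicate sets did not overlap for any of the 3 genes. The share of all genes whose replicate sets do not overlap was not computed. Here and below, such a separation is therefore a description only. The fitted log2 differences were -0.66 ± 0.05 (SE, n = 5 genotypes) for *MYB28*, -1.32 ± 0.06 for *MYB29* and -1.91 ± 0.28 for *MYB76*. *MYB29* and *MYB76* are neighbours on chromosome 5, with 1442 bases between them, and their coding sequences were identical at 77.5% of aligned bases.

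Chain elongation begins with the transamination of methionine by BCAT4 and repeats with MAM1 or MAM3, an isomerase (IPMI) and a dehydrogenase (IMD1), while BAT5 carries the keto acids across the chloroplast envelope. Of its 9 genes, 8 were lower in replicate 2 at the adjusted *p*. *IPMI1* and *BAT5* differed most, by -0.87 ± 0.07 and -0.86 ± 0.05. *IPMI-LSU1*, whose large subunit also serves leucine synthesis, differed by -0.05 ± 0.04 and did not pass. *BCAT4* (AT3G19710) had 1867 and 1312 normalized reads in Col-0, 1332 and 1017 in *ld*, 1435 and 961 in *fld*, 1629.9 and 1062 in *sdg26 aprf1* and 2056 and 1107 in *efl2 efl4*, a fitted difference of -0.60 ± 0.06. The *BCAT4* replicate sets did not overlap, although the lowest replicate 1 library, of *ld*, was close to the highest replicate 2 library, of Col-0. Exons of a gene on the other strand cover 21.2% of the exon bases of *BCAT4*. *MAM1* fell by 0.38 ± 0.08 and *MAM3* by 0.20 ± 0.05 on the log2 scale between replicate 1 and replicate 2, and for both genes the replicate sets overlapped across genotypes.

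All 7 fitted genes of the aliphatic core structure were lower in replicate 2. *CYP79F1* (AT1G16410), whose enzyme makes aldoximes from short and long chain-elongated methionines, had 2385 and 844 normalized reads in Col-0, 1745 and 511 in *ld*, 1869.5 and 881 in *fld*, 927 and 378 in *sdg26 aprf1* and 2999.5 and 1008 in *efl2 efl4*. Its difference of -1.44 ± 0.08 was the largest of the core genes. *CYP79F2* (AT1G16400), whose enzyme acts on long chains, had 551 and 419 in Col-0, 635 and 482 in *ld*, 640.1 and 498 in *fld*, 771 and 583 in *sdg26 aprf1* and 862 and 677 in *efl2 efl4*. The log2 difference of *CYP79F2* was similar in every genotype, -0.40 to -0.35, against -1.77 to -1.09 for *CYP79F1*. *CYP83A1* (AT4G13770), for the next oxidation, had 4145 and 2894 in Col-0, 3956 and 2815 in *ld*, 3983 and 3206 in *fld*, 4710.4 and 3392 in *sdg26 aprf1* and 4229 and 2531 in *efl2 efl4*. Its replicate 1 libraries were all above its replicate 2 libraries, with a fitted difference of -0.51 ± 0.05. AT2G31790, which RefSeq annotates as a glycosyltransferase, differed by -0.74 ± 0.06 and the sulfotransferase genes *SOT17* and *SOT18* by -0.68 ± 0.06 and -0.42 ± 0.06.

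The side-chain S-oxygenases, which turn methylthio into methylsulfinyl glucosinolates, were uneven. *FMO-GSOX3* (AT1G62560) had 815 and 281.5 normalized reads in Col-0, 767 and 277 in *ld*, 820.0 and 368 in *fld*, 789 and 395 in *sdg26 aprf1* and 948 and 417 in *efl2 efl4*, a fitted difference of -1.27 ± 0.08. *FMO-GSOX1* (AT1G65860) had 409.8 and 178 in Col-0, 405 and 224 in *ld*, 337 and 209 in *fld*, 379.5 and 267 in *sdg26 aprf1* and 499 and 206 in *efl2 efl4*, a difference of -0.90 ± 0.11. Neither gene's replicate sets overlapped. *FMO-GSOX2* and *FMO-GSOX5* differed by -0.50 ± 0.07 and -0.14 ± 0.04, and *FMO-GSOX4* by 0.02 ± 0.08 without passing. *FMO-GSOX2*, *FMO-GSOX3* and *FMO-GSOX4* lie in a row on chromosome 1, and the coding sequences of *FMO-GSOX3* and *FMO-GSOX4* were identical at 79.1% of aligned bases. In coding sequence *FMO-GSOX3* was closer to *FMO-GSOX1* and *FMO-GSOX2* than to *FMO-GSOX4*. Those closer copies were lower in replicate 2 as well. *FMO-GSOX5* was also lower, although it was less like *FMO-GSOX3* than *FMO-GSOX4* was. Whether *FMO-GSOX3* and *FMO-GSOX4* differ from each other in the replicate contrast was not tested.

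The shared core genes *SUR1*, for the C-S lyase, and *UGT74B1*, for a glucosyltransferase, differed by -0.42 ± 0.04 and -0.46 ± 0.05 between the replicate sets. *GGP1*, for the peptidase that trims the glutathione conjugate, differed by -0.14 ± 0.04. All 3 were lower in replicate 2 of all 5 genotypes.

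The indolic branch had members in both directions. *MYB34* (AT5G60890) had 604 and 722 normalized reads in Col-0, 549 and 665 in *ld*, 607 and 748.5 in *fld*, 518.5 and 713 in *sdg26 aprf1* and 607.5 and 720.3 in *efl2 efl4*, higher in replicate 2 of every genotype and by 0.31 ± 0.05 in the fit. *MYB51* (AT1G18570) had 448 and 349.7 in Col-0, 543 and 316 in *ld*, 543 and 387 in *fld*, 496 and 520.4 in *sdg26 aprf1* and 507 and 324 in *efl2 efl4*, a fitted difference of -0.44 ± 0.10. *MYB51* was thus lower in replicate 2 of 4 genotypes and not of *sdg26 aprf1*. *MYB122* (AT1G74080) had 24.0 and 25.7 in Col-0, 7.06 and 16.3 in *ld*, 12.9 and 23.0 in *fld*, 18.1 and 15.9 in *sdg26 aprf1* and 16.9 and 25.9 in *efl2 efl4*. At that level its difference of 0.48 ± 0.22 did not pass.

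*CYP79B2* and *CYP79B3* encode the enzymes that turn tryptophan into indole-3-acetaldoxime. *CYP79B2* (AT4G39950) had 1012 and 647 normalized reads in Col-0, 973 and 701 in *ld*, 930.3 and 719 in *fld*, 939 and 952 in *sdg26 aprf1* and 1353 and 1032 in *efl2 efl4*. *CYP83B1* (AT4G31500), for the next oxidation, had 4034 and 2713 in Col-0, 3205 and 2044 in *ld*, 3344.5 and 2469.7 in *fld*, 3047 and 3126 in *sdg26 aprf1* and 3506 and 2474 in *efl2 efl4*. For both genes the replicate 2 library was clearly lower in 4 genotypes, with log2 differences of -0.64 to -0.37 for *CYP79B2* and -0.65 to -0.44 for *CYP83B1*, while in *sdg26 aprf1* they were 0.02 and 0.04. Whether *sdg26 aprf1* departs from the other genotypes in this contrast was not tested. *CYP79B3* (AT2G22330) had 751 and 684 in Col-0, 1011 and 725.5 in *ld*, 837 and 892 in *fld*, 1205 and 934.5 in *sdg26 aprf1* and 1138 and 755 in *efl2 efl4*, a fitted difference of -0.30 ± 0.09. The neighbouring transferase genes *GSTF9* and *GSTF10*, with 897 bases between them, went opposite ways, by -0.34 ± 0.04 and 0.27 ± 0.04.

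*CYP81F2* (AT5G57220), whose enzyme hydroxylates the indole ring in the response to pathogens, was the member with the largest rise in replicate 2. It had 125 and 372 normalized reads in Col-0, 204 and 295.5 in *ld*, 169 and 383 in *fld*, 180.2 and 362.5 in *sdg26 aprf1* and 151 and 217 in *efl2 efl4*, a fitted difference of 0.96 ± 0.14. The replicate 2 library was higher in every genotype, and all replicate 2 values were above all replicate 1 values. *CYP81F4* (AT4G37410) had 339.8 and 299 in Col-0, 322 and 269 in *efl2 efl4*, 328 and 276 in *fld*, 309 and 301 in *ld* and 303 and 291 in *sdg26 aprf1*, a difference of -0.16 ± 0.06 that did not pass. Exons on the other strand cover 88.2% of the exon bases of *CYP81F4*.

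**Figure D3:**
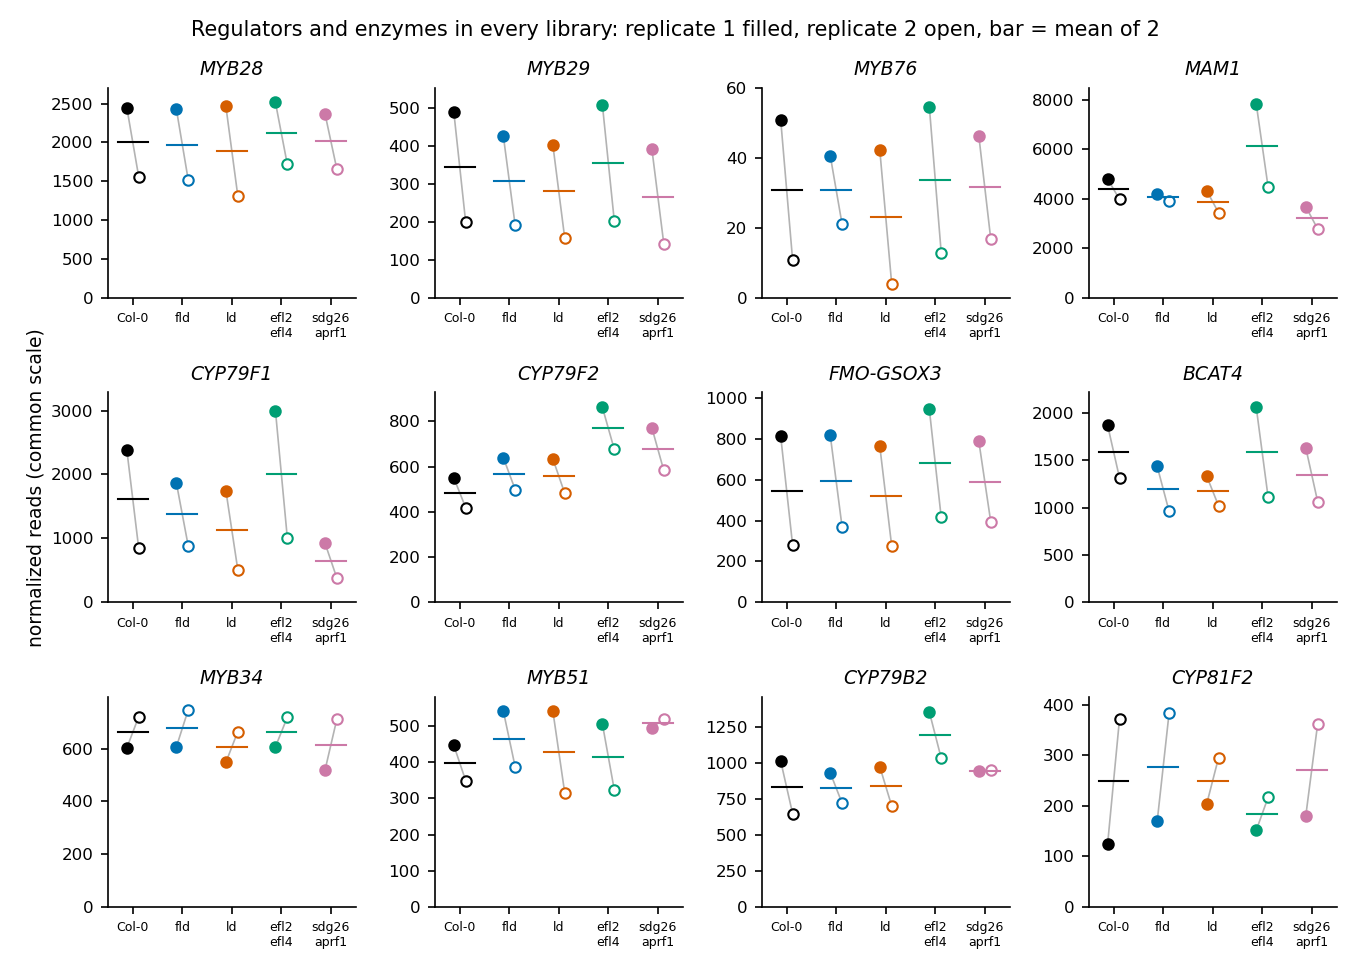
Normalized reads on the common scale (linear axes from 0) of 12 regulators and enzymes in every library, with replicate 1 filled, replicate 2 open and a bar at the mean of the 2. The slope from filled to open is downward in all 5 genotypes for the aliphatic genes in the upper 2 rows, upward for *MYB34* and *CYP81F2*, and flat in *sdg26 aprf1* for *MYB51* and *CYP79B2*.

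Other genes around the pathway, from a list of 23 of which 20 were fitted, differed in both directions. Of these 20, 9 were lower and 4 higher in replicate 2 at the adjusted *p*, against 15.6% and 13.4% of all genes tested. *APK1* and *APK2*, for the kinases that make the sulfate donor, differed by -0.73 ± 0.04 and -0.96 ± 0.07, and the transporter gene *GTR1* by -0.52 ± 0.10. *SDI1*, which is induced by sulfur deficiency and represses aliphatic glucosinolate synthesis, and AT1G04770, annotated as a TPR-like protein, differed most, by -2.40 ± 0.12 and -2.37 ± 0.08. *IGMT1*, for a methyltransferase that acts after CYP81F2, was higher in replicate 2 by 1.40 ± 0.09, with 95.9 and 319 normalized reads in Col-0. The paralogs of primary metabolism *IMD2*, *IMD3* and *IPMI-SSU1*, which serve leucine synthesis, differed by 0.11 ± 0.04, -0.05 ± 0.04 and -0.03 ± 0.04 without passing. *MYC3* and *SLIM1* differed by -0.09 ± 0.04 and -0.07 ± 0.05 without passing. *MYC4* passed as lower in replicate 2, with differences of -0.33 to -0.07 across the 5 genotypes. *MYC2* was listed at 0 in all libraries. Exons on the other strand cover 98.5% of its exon bases, so that its level was not measurable from the tables.

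Some markers of sulfur supply and of the time of day differed between the replicate sets as well. Of all genes tested, 15.6% were lower and 13.4% higher in replicate 2 at the adjusted *p*. Of 7 sulfur deficiency genes, 6 were lower in replicate 2, among them *LSU2* by -1.76 ± 0.12 and the adenylylsulfate reductase gene *APR1* by -1.86 ± 0.08. Their summed level was 17244 to 18149.5 normalized reads in the replicate 1 libraries and 6621 to 9348 in the replicate 2 libraries, with no overlap. Of 8 fitted clock genes, 5 were lower and 1 was higher, with *GI* at -1.24 ± 0.15 and *LUX* at 0.34 ± 0.07. Of 6 jasmonate genes, 3 were lower and 1 was higher. Of the shoot markers, 0 were lower and 1 was higher, and of the root markers none passed at the adjusted *p*. Their part in the difference between the replicate sets was not tested, and sowing, harvest and library preparation cannot be told apart. In bulk seedlings, fewer cells that express a gene and less RNA per cell cannot be told apart either.

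The non-members whose levels followed the mean of the aliphatic genes most closely over the 10 libraries, among 17250 genes with a mean of at least 50, were *SCPL10* (Pearson *r* = 0.991), AT4G04750 (0.984) and AT4G10360 (0.984). *CHIL*, which assists flavonoid synthesis, had an *r* of 0.979 and *ABCC14*, for a transporter, an *r* of 0.975. Libraries share the split into replicate sets, so that these correlations describe mainly that split. For the indolic mean the closest was AT3G25430, with an *r* of 0.960.

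The medians over the aliphatic genes differed less between the mutants and Col-0 than between the replicate sets, but single members went the other way, such as *CYP79F2* in *efl2 efl4* (0.66 against -0.38 between the replicate sets), *CYP79B3* in *sdg26 aprf1* (0.57 against -0.30) and *MYB122* in *ld* (-1.13 against 0.48). Each mutant was fitted in its own table by limma on log2(normalized reads + 1), and a gene was called when |log2FC| was at least 1 and the unadjusted two-sided *P* was under 0.01. By that rule 0 of the 39 genes were called in any mutant, against 0.504% of 20026 genes tested in *ld*, 0.394% of 20053 in *fld*, 0.498% of 20068 in *sdg26 aprf1* and 0.434% of 20027 in *efl2 efl4*. At an adjusted *p* under 0.05 the number was 0 as well, against 0.00499% in *ld*, 0.00997% in *fld*, 0% in *sdg26 aprf1* and 0.00499% in *efl2 efl4*. With edgeR and DESeq2 on the recovered reads 0 members were called by either rule. At an unadjusted *P* under 0.05 limma had 0 members in *ld*, 1 in *fld* (*CYP79B3*), 2 in *sdg26 aprf1* (*CYP79B3* and *MAM1*) and 2 in *efl2 efl4* (*CYP79F2* and *CYP81F3*). Over all genes the shares at that *P* were 4.26%, 3.79%, 4.56% and 4.69% in the same order, so that the members were near the background.

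The replicate numbers pair the libraries, since the replicate differences of the genotypes were correlated. With the replicate number as a block, 4 members passed the adjusted *p* in *ld*, where 3.38% of all genes did. There were 2 in *fld* (2.25% of all genes), 0 in *sdg26 aprf1* (0.0399%) and 4 in *efl2 efl4* (2.86%). All 6 calls in *fld* and *ld* were lower than Col-0 and all 4 in *efl2 efl4* were higher. In a blocked fit of all 10 libraries 1 member passed the adjusted *p* in *ld* (1.37% of all genes), 0 in *fld* (0.738%) and 2 in *efl2 efl4* (2.22%), and the fold rule called *MYB122* in *ld* (0.848%). The list was chosen across these contrasts too, and nothing is read from the counts. All 4 comparisons share the Col-0 libraries. The median log2FC of the aliphatic genes was -0.08 in *ld*, -0.02 in *fld*, 0.02 in *sdg26 aprf1* and 0.13 in *efl2 efl4*, and that of the indolic genes was -0.02, 0.02, 0.16 and 0.05 in the same order, while the median of all genes was 0 in each. Leaving out a single library moved the aliphatic median to between -0.38 and 0.48. It was above 0 in all 4 mutants without replicate 1 of Col-0 or replicate 2 of the mutant, and below 0 in all 4 without replicate 2 of Col-0 or replicate 1 of the mutant.

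**Figure D4:**
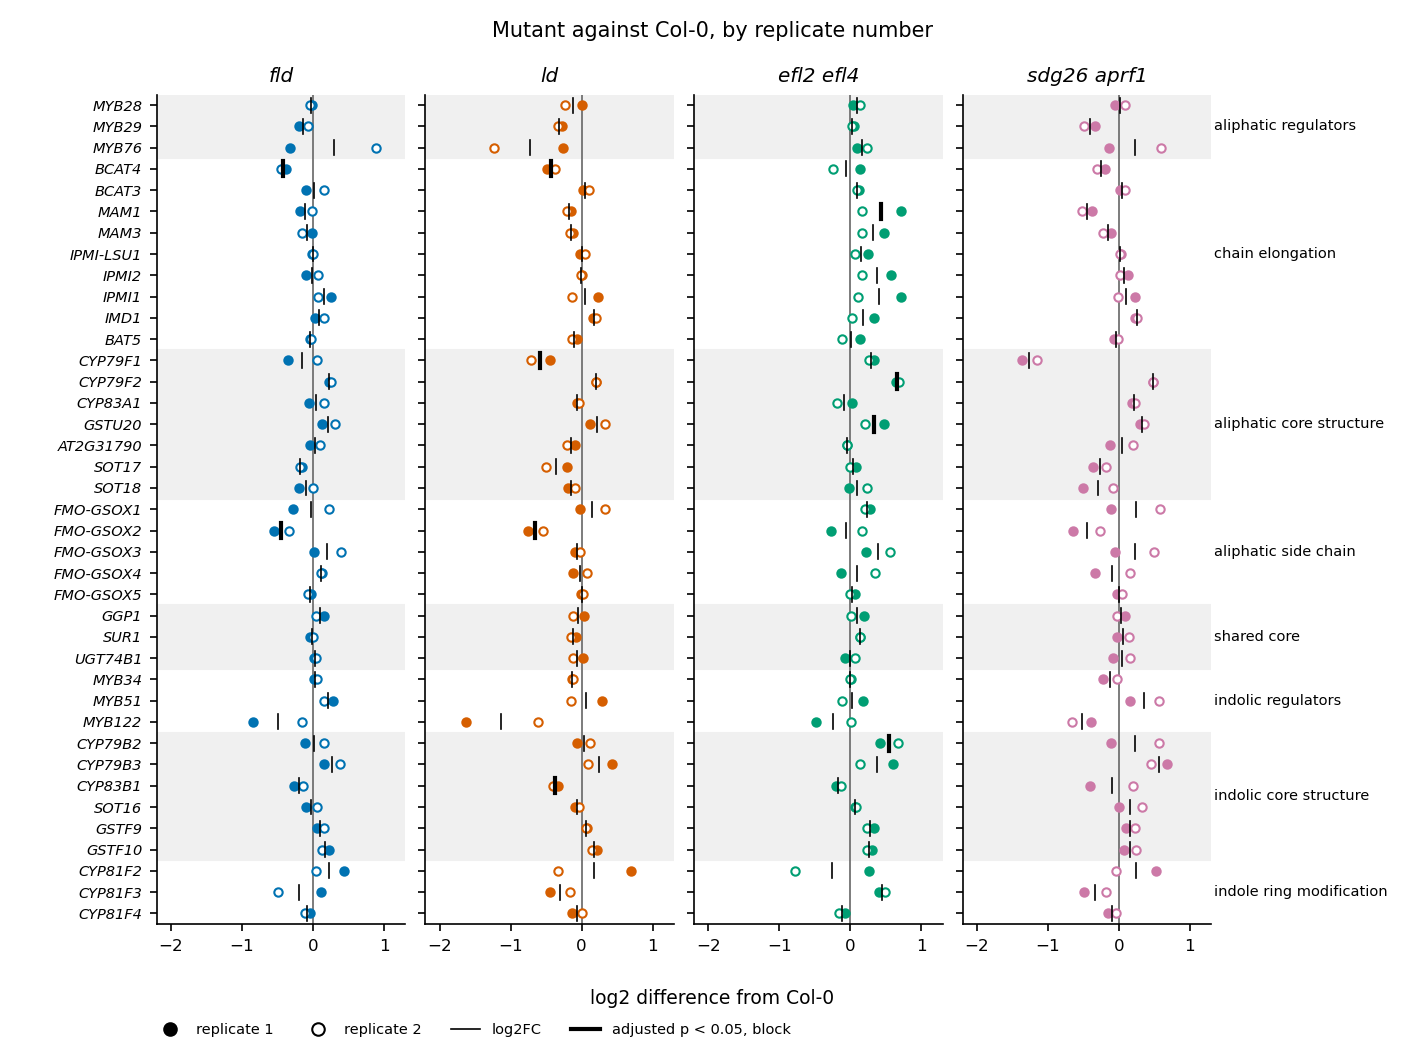
Log2 difference from Col-0 of the 39 fitted genes in the 4 mutants, matched by replicate number on the common scale (filled, replicate 1; open, replicate 2), with the log2FC of the fit as a vertical line, thick where the fit with the replicate block passed an adjusted *p* of 0.05. *CYP79F1* in *sdg26 aprf1* lies farthest to the left among the fitted values, at -1.26, and *CYP79F2* in *efl2 efl4* farthest to the right, at 0.66.

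In *fld*, 20 of the 39 genes had a log2FC below 0 and 19 above, and the extremes were *MYB122* (-0.50 ± 0.36, SE, n = 2 against 2), *FMO-GSOX2* (-0.45 ± 0.31), *CYP79B3* (0.27 ± 0.10) and *MYB76* (0.29 ± 0.79). Of the genes, 1 was lower in both libraries than in both Col-0 libraries and 3 were higher, against 14.4% and 14.9% of all genes tested. With the block, *BCAT4* (-0.42 ± 0.06) and *FMO-GSOX2* (-0.45 ± 0.09) passed. *FMO-GSOX2* had 752 and 448.5 normalized reads in Col-0 and 512 and 354 in *fld*, lower at each replicate number although the groups overlapped. The *BCAT4* libraries given above were also lower at each number, with log2 differences of -0.38 and -0.45.

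In *ld* the same pair was low, *BCAT4* by -0.43 ± 0.06 and *FMO-GSOX2* by -0.65 ± 0.09 with the block, where *FMO-GSOX2* had 446 and 308 normalized reads and both were below both Col-0 libraries. The other *FMO-GSOX2* values were 481 and 374 in *sdg26 aprf1* and 623 and 500.5 in *efl2 efl4*. *CYP79F1* (-0.59 ± 0.07) and *CYP83B1* (-0.37 ± 0.05) passed with the block as well, both lower at each replicate number, and their groups overlapped. The largest difference was in *MYB122* (-1.13 ± 0.45), with 7.06 and 16.3 reads against 24.0 and 25.7. *MYB76* followed (-0.73 ± 1.24), and *GSTU20* (0.22 ± 0.12) and *CYP79B3* (0.25 ± 0.18) were at the other end. *GSTU20*, for a glutathione transferase of the aliphatic core, had 8744 and 7058 normalized reads in Col-0 and 9486 and 8867 in *ld*. Of the 39 genes, 4 were lower in both libraries than in both Col-0 libraries and 1 was higher, against 14.6% and 15.5%.

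In *efl2 efl4* more members were above Col-0 than below, 29 against 10, while 9905 of all genes tested were above and 10122 below. The replicate 1 library of *efl2 efl4* had the highest value of the 10 libraries in 24 of the 39 genes, among them *MYB28*, *MAM1*, *CYP79F1* and *CYP79B2*. The share of all genes that were highest in that library was not computed. Most members were lower in replicate 2, so nothing is read from this count. *MAM1* (AT5G23010) had 7824 and 4463 normalized reads against 4793 and 3973 in Col-0, 4322 and 3432 in *ld* and 4192 and 3913 in *fld*, a log2FC of 0.43 ± 0.10 with the block, and the matched differences of 0.71 and 0.17 were unequal. *MAM3* (AT5G23020), which makes longer chains, had 2138 and 1643 against 1540.2 and 1462 in Col-0, 1519.7 and 1305 in *fld*, 1414.5 and 1297 in *ld* and 1424 and 1258 in *sdg26 aprf1*. *CYP79F2* was higher at each number by 0.65 and 0.69 and *CYP79B2* by 0.42 and 0.67, with blocked log2FC of 0.66 ± 0.09 and 0.54 ± 0.09. *GSTU20* passed too, at 0.34 ± 0.08, with 12150.2 and 8168 reads, while *sdg26 aprf1* had 10784 and 9029 and *fld* had 9477 and 8778. Without the block the highest values were *CYP79F2* (0.66 ± 0.19) and *CYP79B2* (0.54 ± 0.25), and the lowest *CYP81F2* (-0.26 ± 0.53) and *MYB122* (-0.24 ± 0.31). None of the 39 genes was lower in both libraries than in both Col-0 libraries and 7 were higher, against 14.8% and 16.8%. The 3 aliphatic regulators differed from Col-0 by 0.03 to 0.17 only.

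In *sdg26 aprf1* the lowest values were *CYP79F1* (-1.26 ± 0.63) and *MYB122* (-0.52 ± 0.27) and the highest *CYP79B3* (0.57 ± 0.15) and *CYP79F2* (0.48 ± 0.20). *CYP79F1* was at 40.4% of the Col-0 mean and lower at each replicate number, with log2 differences of -1.36 and -1.15, but the replicate 1 library of the mutant (927) exceeded the replicate 2 library of Col-0 (844), so that the groups overlapped. Without replicate 2 of Col-0 its log2FC was -2.01 and it was called by the fold rule, as were 1.04% of all genes. With the block *CYP79F1* was past the fold rule (0.698% of all genes) but not the adjusted *p*. With the block in a fit of all 10 libraries it was past the fold rule again (0.883%), and *CYP79F1* and *CYP79F2* both passed the adjusted *p*, among 2% of the genes tested. *MAM1* had 3677 and 2780 normalized reads, both below both Col-0 libraries, and a log2FC of -0.45 ± 0.17. *CYP79B3* was above both Col-0 libraries in both libraries. Of the 39 genes, 4 were lower than Col-0 in this sense and 5 were higher, against 15.4% and 14.7%.

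**Figure D5:**
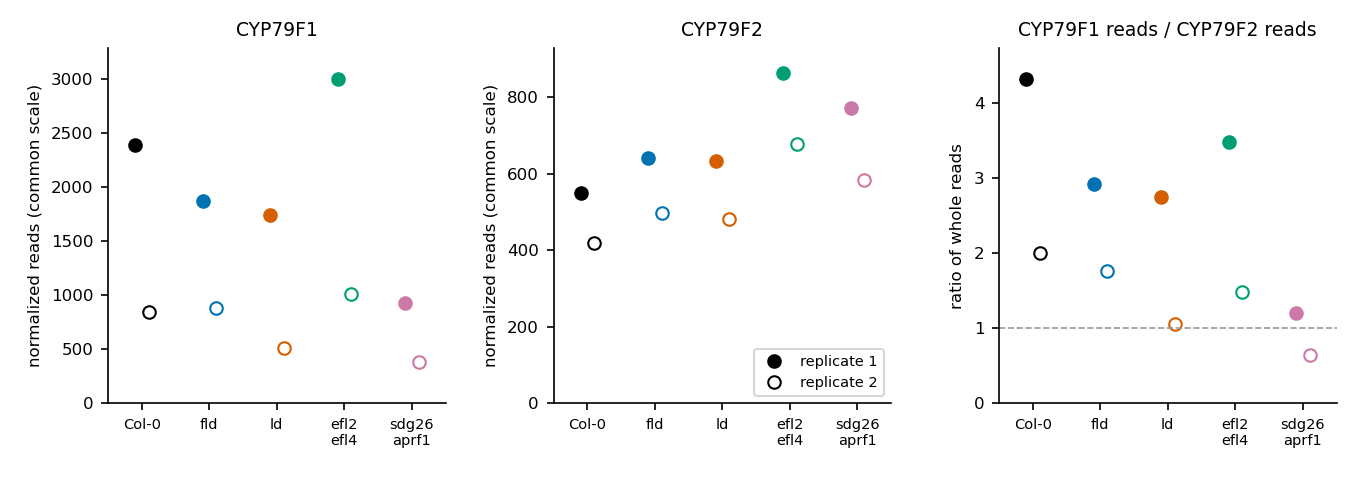
Normalized reads of *CYP79F1* and *CYP79F2* on the common scale and the ratio of their whole reads in each library (replicate 1 filled, replicate 2 open, dashed line at a ratio of 1). *CYP79F1* is lowest and the ratio is lowest in *sdg26 aprf1* at each replicate number, 1.20 and 0.649 against 4.33 and 2.01 in Col-0.

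The balance of the 2 neighbouring genes differed among the libraries, between genotypes and between replicate sets, and these differences were not tested. There were 4.33 and 2.01 *CYP79F1* reads for each *CYP79F2* read in Col-0, 2.75 and 1.06 in *ld*, 2.92 and 1.77 in *fld*, 1.20 and 0.649 in *sdg26 aprf1* and 3.48 and 1.49 in *efl2 efl4*. The ratio was lower in replicate 2 of every genotype. At each replicate number it was lower in every mutant than in Col-0, but every mutant is set against the same Col-0 library there. *CYP79F1* thus made up 81.2% and 66.8% of the pair's reads in Col-0 and 54.6% and 39.4% in *sdg26 aprf1*. These are ratios of reads, and the annotated exons of *CYP79F1* (3272 bases) are longer than those of *CYP79F2* (2018 bases).

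Whether the mutants differed among themselves was tested by a limma F test over all 10 libraries, which called 0 of the 39 members at an adjusted *p* under 0.05, against 0.0948% of 20050 genes. The edgeR F test also called 0, and limma had 3 members at an unadjusted *P* under 0.05, against 6.06% of all genes. With the replicate block the F test called 4, *MAM1*, *MAM3*, *CYP79F1* and *CYP79F2*, and 2.53% of all genes. The members were chosen from values compared across these genotypes, so that these calls are a description and nothing is read from them. In these 4 genes *efl2 efl4* had the highest mean of the 4 mutants. *CYP79F1* and *MAM1* were lowest in *sdg26 aprf1*, where *CYP79F2* was second only to *efl2 efl4*.

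The zero values of *GSTF11* and *CYP81F1* come with an overlap in the annotation. An exon of a gene on the other strand covers 100% of the exon bases of *GSTF11* and 98.4% of those of *CYP81F1*. Of 401 protein-coding genes with at least 98% of exon bases so covered, 93.0% had 0 reads in all libraries, against 13.0% of 20771 genes with no such cover. A count of 0 allows up to 3 reads per library for counting error only, and reads that lie in 2 genes may have been left out of the counts, so that the level of these genes was not measurable from the tables.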

How the data were processed

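RNA of whole seedlings of the wild type and of the 4 mutants was sequenced, 2 libraries per genotype. Per the labels and the methods of the study, the authors aligned the reads to TAIR10 with HISAT2, used featureCounts for reads on exons and edgeR for the normalization. The gene annotation and the strand setting are not given in the sources used here. The deposited signal is normalized reads in 4 tables. Each table holds a single mutant beside Col-0 and was normalized on its own.

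The spacing of low values gave the worth of 1 read in each library, from which whole reads were recovered. Between 99.0% and 100.0% of values lay within 0.1 of a whole number, and Col-0 gave the same reads in all 4 tables. Levels on the common scale are these reads scaled by TMM over the 10 libraries. Log2FC are from limma trend (version 3.58.1) on log2(normalized reads + 1) in the table of each mutant, with a minimum mean of 10, and a pseudocount of 1 understates the change of low genes. The replicate contrast and the F test among mutants used the common scale. DEGs had |log2FC| of at least 1 and an unadjusted *P* under 0.01, the thresholds of the study, and adjusted *p* values were taken over all genes tested. edgeR (4.0.16, quasi-likelihood) and DESeq2 (1.42.0) on the recovered reads were alternatives. The fits were tried on simulated reads, which for the mutant fits held no difference between replicate sets. That simulation therefore does not show how the fits without a block behave in these libraries.

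The correlation of the replicate differences between genotypes was 0.371 to 0.611 over 20050 genes, above 0.1 in all 10 pairs, so the replicate numbers were taken to pair the libraries, a pairing that comes from the data and not from the labels. Replicates of a genotype differed by more than sampling noise, with a chi-square of 14.9 to 20.6 per degree of freedom. The methods of the study name edgeR without its model terms, so the fit without a block was taken as the main one, and the block is given where it changes a call. The floor for a count of 0 covers counting error only, whereas the ± values are standard errors of the fits, from the spread between libraries.

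The 43 members and the lists of other genes were chosen with earlier results of these data known. AT2G31790, AT1G04770 and AT2G25450, which RefSeq leaves without a symbol, are given by identifier, and other symbols follow RefSeq TAIR10.1 and its synonyms. Values in every library are given for the 6 regulators, the first committed enzymes, the side-chain genes *FMO-GSOX1* and *FMO-GSOX3* and a pair of indole-modifying genes. *AOP3* is given as a range only, and *AOP2* has no values. The members with the 2 lowest and the 2 highest log2FC in each mutant are named. The genes of chain elongation and core structure named beyond these, and the neighbours and overlapping genes, were chosen after their values were seen. Also chosen after seeing the data were 2 alternatives, a minimum log2 difference in the replicate contrast and the count at an adjusted *p* for each mutant.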

Additional observations from a re-analysis of the deposited data

Results flagged for a closer look

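In the elongation gene *MAM3*, both *efl2 efl4* libraries were above both Col-0 libraries (log2FC 0.32), while both *ld* libraries (-0.15) and both *sdg26 aprf1* libraries (-0.16) were below them. The F test among the 4 mutants did not call *MAM3* without the replicate block and called it with the block, but these genes were chosen from values compared across the genotypes, so the call is a description, and the single pairs of mutants were not tested. In *CYP81F3*, which encodes an indole-ring hydroxylase, *efl2 efl4* was above Col-0 in the same sense (0.44), and *ld* (-0.31) and *sdg26 aprf1* (-0.33) were below. The F test did not call *CYP81F3* with or without the block, and the pairs were not tested. All these comparisons share the Col-0 libraries. Of all genes tested, 16.8% were above Col-0 in this sense in *efl2 efl4*, while 14.6% were below it in *ld* and 15.4% in *sdg26 aprf1*. The share of all genes with both patterns at once was not computed, so nothing is read from these genes.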

How the results depend on the processing

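Without the block, no member was called in any mutant by the fold rule or the adjusted *p* under the other pseudocount, filters and tools. With the replicate block in the own table, the members with an adjusted *p* under 0.05 numbered 4 in *ld*, 2 in *fld* and 4 in *efl2 efl4*, and the fold rule called 1 in *sdg26 aprf1*. With the replicate block and all 10 libraries, the adjusted *p* gave 1 in *ld* (1.37% of all genes), 0 in *fld* (0.738%) and 2 each in *efl2 efl4* (2.22%) and *sdg26 aprf1* (2%), and the fold rule 1 in *ld* (*MYB122*) and 1 in *sdg26 aprf1* (*CYP79F1*). The block thus changed calls in all 4 mutants, and among the mutants it gave 4 members where the F test had 0. When single libraries were left out, the fold rule called 0 to 1 members in *sdg26 aprf1*. That was without replicate 2 of Col-0, where the lone Col-0 library is assumed to vary like the other group. The difference between the replicate sets also enters that fit. The cause of these changes was not tested.

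The indolic median of *fld* was 0.01 with edgeR and with DESeq2. In *ld* the indolic median was 0.03 with a mean of at least 50, -0.04 with edgeR, -0.03 with DESeq2 and -0.02 with all 10 libraries, with or without the block. The aliphatic median of *efl2 efl4* was 0.12 with a pseudocount of 5, 0.10 with no filter or with a mean of at least 50, and 0.11 with edgeR and with DESeq2. Leaving out single libraries gave aliphatic medians of -0.38 to 0.22 in *ld*, -0.30 to 0.26 in *fld*, -0.33 to 0.28 in *sdg26 aprf1* and -0.23 to 0.48 in *efl2 efl4*, and indolic medians of -0.14 to 0.02, -0.11 to 0.05, -0.07 to 0.13 and 0.05 to 0.19 in the same order. In the replicate contrast 31 to 34 members were called under the other filters, tools and subsets of genotypes, and 13 with a minimum log2 difference of 0.5. Low counts limit the precision of *MYB76* and *MYB122*, and *MYB76* in *ld* had a log2FC of -0.73 ± 1.24 (SE).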
